A study of Mus musculus with 4 samples.

Results

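The comparison described here sets the 2 control libraries of the study against each other: mouse embryonic stem (ES) cells with an empty vector against the parental ES cells. They are 2 of 4 libraries in all. The other 2 (replicates 1 and 2) come from cells that express NUP98-HOXA9, a leukaemia fusion of a nucleoporin and a homeodomain protein. Both controls were chosen by their titles, so no measured value decided membership. Of 55401 gene identifiers in the tables, the 14669 at 1 CPM or more in either control library were compared (CPM is the estimated count per 1000000 of the library's total). The parental library is of wild-type EB3 cells. The empty-vector library is of EB3-derived cells whose genotype is given as wild type with empty vector. The fusion libraries are of EB3-derived cells with the genotype NUP98-HOXA9. All 4 were grown on gelatin with serum and LIF, the cytokine that keeps mouse ES cells undifferentiated, and the labels give no other treatment. EB3 is a subline of the male, Hprt-deficient E14tg2a line. The labels do not name the vector, how it was introduced or selected for, how many passages separate the cells, or whether the empty-vector cells are 1 clone or a pool.

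There was 1 library on each side, so no difference below has a replicate check and no p-value is given. A difference that comes with the vector and one between any 2 cultures or clones of EB3 cannot be told apart. The intervals in parentheses are 95% exact binomial intervals of the ratio of the CPM values, and they cover counting error only. Ratios are empty vector over parental. Log2 ratios were taken after adding 0.1 CPM to both values, which understates the difference of low genes. A gene is said to stand apart at a ratio of at least 2-fold after that addition. Some low genes whose plain CPM ratio is past 2-fold are therefore not counted.

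The libraries matched their labels where this could be checked, though no check given here tells the empty-vector library from the parental one. Hoxa9 had 0 counts in both controls and stood at 191 and 132 CPM in the fusion libraries. Hprt, the purine salvage enzyme that the parent line lacks, stood at 0.251 CPM in the parental and 0.263 CPM in the empty-vector library. Pou5f1, the central pluripotency factor, stood at 980 CPM in the parental library and 1109 CPM with the empty vector. The controls held 19957932 (parental) and 19021386 (empty vector) estimated counts, with mitochondrial genes at 2.5% and 2.45% of them.

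Over all 14669 genes the median log2 ratio was 0.04, and the interquartile range was -0.25 to 0.33. At 2-fold, 769 genes (5.24%) stood higher with the empty vector and 518 (3.53%) stood lower. Such genes were more frequent at low levels: of 10 groups of equal size by mean CPM, the lowest had 17.6% of genes higher and 12.1% lower, and the highest 1.02% and 0.61%. The spread between cultures was not measured. Of the 11343 genes that reached 5 CPM in either control, 614 were 2-fold apart. As a yardstick from the same series, 10.6% of genes were 2-fold apart between the 2 fusion replicates, against 8.77% between the 2 controls. The plot of gene levels in the 2 controls shows both features that recur below, named genes far from the diagonal and a displaced band of chromosome 8 genes.

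**Figure D1:**
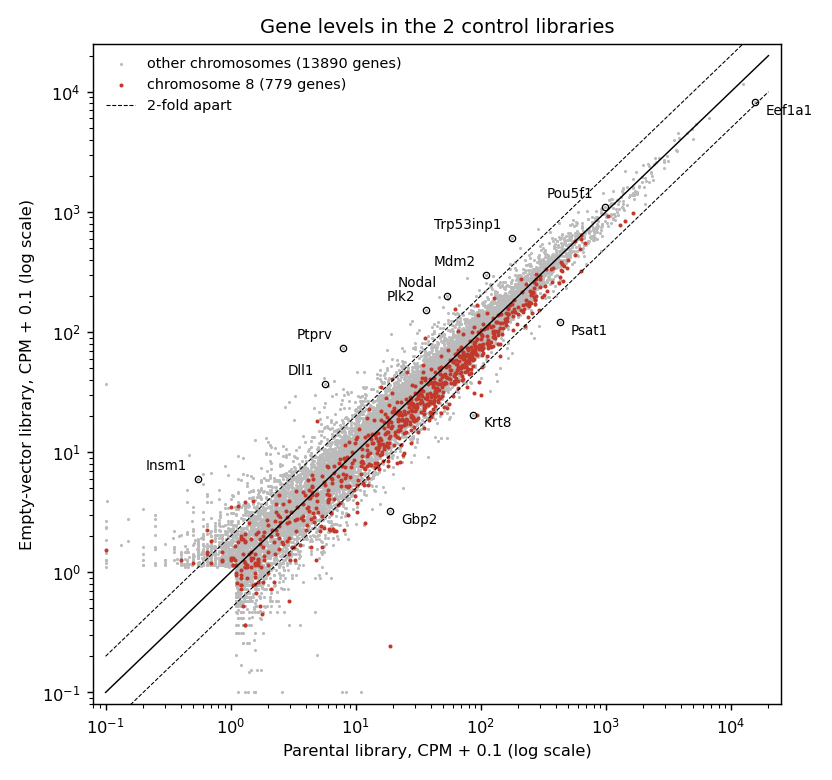
CPM in the parental library (x) against the empty-vector library (y), each plus 0.1, on log axes, for 14669 genes. Chromosome 8 genes are red, the solid line marks equal levels and the dashed lines a 2-fold ratio. Most red points lie under the solid line, while Plk2, Mdm2, Nodal and Ptprv lie above the upper dashed line and Psat1 and Krt8 below the lower one.

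Away from chromosome 8, 753 of 13890 genes (5.42%) stood at least 2-fold higher and 453 (3.26%) at least 2-fold lower with the empty vector. Genes were ranked among official symbols that reached 5 CPM in either control. Those with the largest ratios included 3 neural or neuroendocrine transcription and signalling genes. Neural markers as a set did not go one way: the neural ectoderm list had a median log2 ratio of -0.05, with 6 of 12 measured members above 0 and 6 below. Insm1, a zinc finger factor of neuroendocrine cells, had 9 counts (0.451 CPM) in the parental library and 111 (5.84 CPM) with the empty vector. Neurod1, a proneural factor, stood at 5.51 and 41.1 CPM (ratio 7.46, 6.10 to 9.19). Dll1, a Notch ligand, stood at 5.56 and 36.6 CPM (ratio 6.58, 5.38 to 8.11). Neither fusion library reached the empty-vector level of these 3 genes: Neurod1 stood at 1.16 and 4.21 CPM there. The highest log2 ratio of this ranking (3.45) belonged to Prmt8, an arginine methyltransferase, with 0.501 CPM in the parental and 6.47 CPM in the empty-vector library (ratio 12.9, 6.79 to 27.6). Ptprv (chromosome 1, 135108497 to 135132594), a phosphatase gene known as a p53 target in mouse, stood at 7.87 and 73.6 CPM (ratio 9.36, 7.93 to 11.1). Gadd45g, a growth arrest and stress gene, stood at 2.61 and 23.7 CPM (ratio 9.10, 6.82 to 12.4). The others of the 15 largest were Tbx4, Anks1b, Ano3, Cpz, Col6a4, Ltb4r2, Ssc5d, Sytl1 and Zfp750, with log2 ratios of 2.66 to 3.25.

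At the other end of the same ranking, Gbp2, an interferon-induced GTPase, stood at 18.9 CPM in the parental and 3.13 CPM in the empty-vector library (ratio 0.166, 0.125 to 0.220). Its neighbour Gbp2b stood at 15.5 and 3.60 CPM. Krt8 and Krt19, keratins of simple epithelia, had ratios of 0.236 and 0.240. Krt8 stood at 86.5 CPM in the parental, 20.4 CPM in the empty-vector and 152 and 60.3 CPM in the fusion libraries. Chd3, a chromatin remodeller, stood at 53.6 and 13.0 CPM, and in both fusion libraries it lay between the controls, at 31.3 and 30.9 CPM. Nupr1, a stress-induced nuclear protein, stood at 11.5 and 2.37 CPM. Among the 15 smallest were also Lipg, Psmb8, Tinagl1, Myl9, Ap3b2, Prlr, Csf1 and H2-Q7, with log2 ratios of -2.55 to -1.97. H2-Q7 has close copies between which the estimated counts may be split.

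Genes of chromosome 8 stood lower with the empty vector as a block. Gain of chromosome 8 is a known recurrent change of mouse ES cells in culture. DNA was not measured here, and copy number was not tested. Of 779 measured chromosome 8 genes, 621 (79.7%) had a lower CPM with the empty vector, against 44.1% of genes elsewhere. Their median log2 ratio was -0.36, a ratio of 0.777, while all other genes together had a median of 0.06. At a mean of 10 CPM or more over the 2 controls, 462 of 541 chromosome 8 genes (85.4%) stood lower. The chromosome took 5.49% of all counts in the parental library, 4.31% with the empty vector, and 4.41% and 4.34% in the fusion libraries. Set against the mean of the other 3 libraries, and relative to all other genes, the parental library's chromosome 8 median was 0.38 on the log2 scale. The same value was -0.16 for the empty vector and -0.08 and -0.13 for the fusion libraries. The library that stood apart on this chromosome was thus the parental one. Since the fusion and the empty-vector ratios share the parental library as denominator, their medians for chromosome 8 (-0.36, and -0.29 and -0.28) are not independent of each other.

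**Figure D2:**
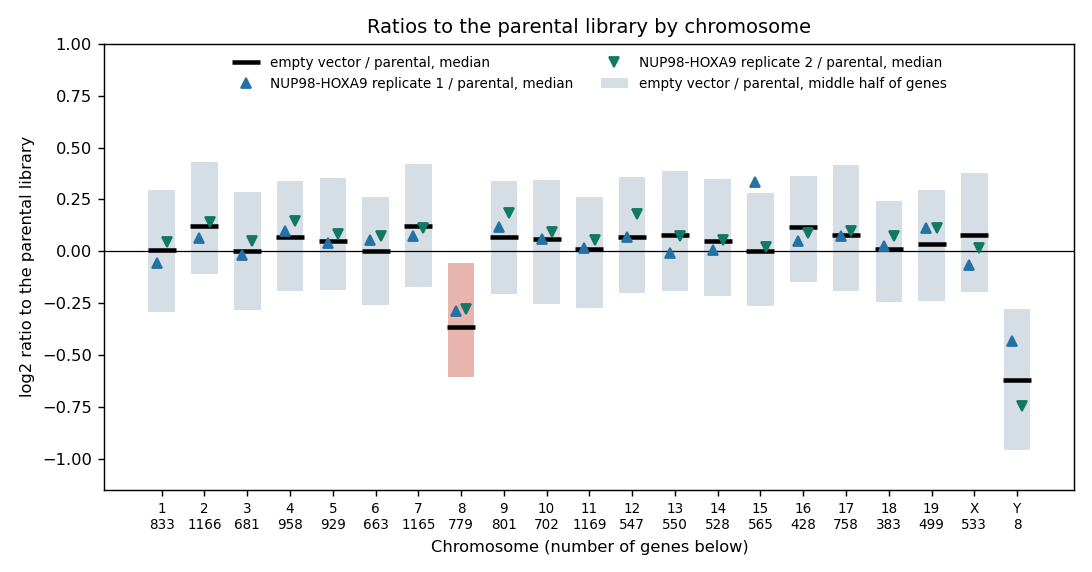
Log2 ratio to the parental library by chromosome, with the number of genes under each name. Bars span the interquartile range of genes and black marks the median for the empty vector; triangles are medians for the fusion replicates, which share the parental denominator. Chromosome 8 lies at -0.36, the other autosomes between -0.001 and 0.12, and Y, with 8 genes, at -0.62.

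The shift ran along the whole of chromosome 8. When its genes were cut by position into 10 groups of equal size, every group had a negative median, from -0.44 to -0.20, and in each group 55 to 65 of 77 or 78 genes stood lower. In windows of 10 Mb with at least 20 genes, the 12 windows of chromosome 8 had medians of -0.53 to -0.24. All 215 windows of other chromosomes lay above them, at -0.23 to 0.41. The lowest window, from 30 to 40 Mb, holds Dusp4.

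**Figure D3:**
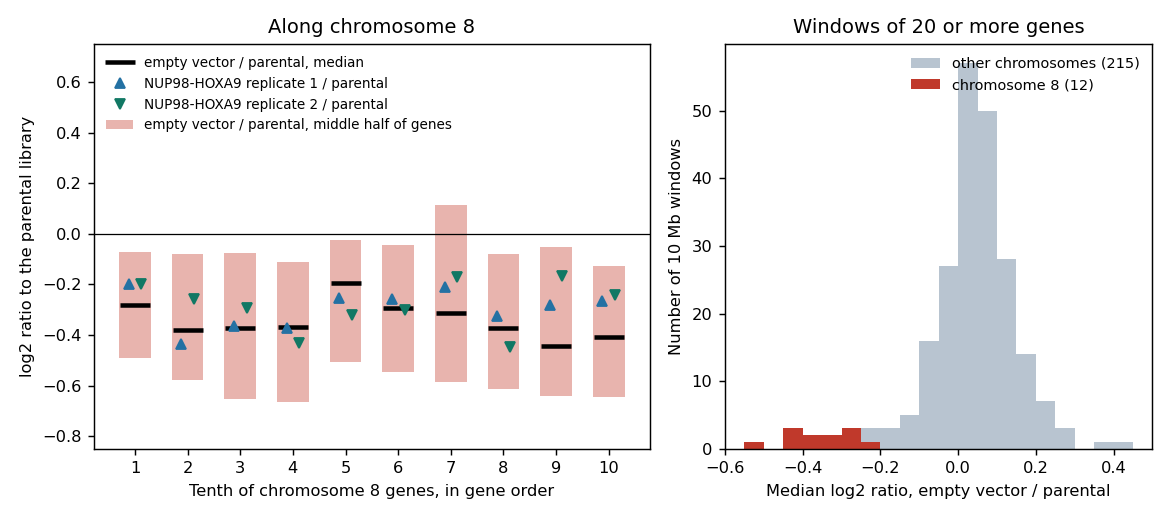
Left, log2 ratios of chromosome 8 genes in 10 groups by gene order; bars span the interquartile range for empty vector over parental, black marks the median, triangles the fusion replicates over parental. Right, number of 10 Mb windows by median log2 ratio, empty vector over parental. All 10 groups have medians below 0, and the 12 chromosome 8 windows lie left of all 215 others.

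Single genes on chromosome 8 went well past the block. At 2-fold, 16 of its 779 genes (2.05%) stood higher and 65 (8.34%) lower. Dusp4, a phosphatase that switches off ERK signalling, stood at 93.9 CPM in the parental and 20.3 CPM in the empty-vector library (ratio 0.217, 0.194 to 0.242); the fusion libraries held 20.7 and 49.6 CPM. Hhip, a Hedgehog-binding antagonist, stood at 11.7 and 2.47 CPM. Msmo1, a sterol demethylation enzyme, stood at 101 and 29.8 CPM (ratio 0.296, 0.270 to 0.326). Nkd1, a Wnt feedback inhibitor, stood at 5.26 and 1.52 CPM. Rpl13, a ribosomal protein, stood at 1424 and 836 CPM, and Cox4i1, a subunit of cytochrome oxidase, at 457 and 264 CPM. One identifier of Chtf8 had 371 and 3 estimated counts, but a second identifier overlaps it almost wholly and stood at 164 and 140 CPM, so how reads were shared between the pair is uncertain. Against the block, Vegfc, a lymphangiogenic growth factor, stood at 4.81 CPM in the parental and 17.9 CPM in the empty-vector library (ratio 3.73, 2.96 to 4.72). Man2b1 (85083270 to 85098282), a lysosomal mannosidase, and Fbxw9 (85060055 to 85067124), an F-box gene, lie near each other and had ratios of 2.51 and 2.5. Man2b1 stood at 62.3 and 157 CPM, with 70.9 and 77.8 CPM in the fusion libraries. Zfp42 and Klf2, pluripotency genes on this chromosome, had log2 ratios of -0.10 and -0.03.

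No other autosome came near this. The medians of the remaining autosomes were -0.001 to 0.12, and that of X was 0.08. Chromosome 15, whose median was 0.34 for fusion replicate 1 over parental, had a median of 0.00 for the empty vector. On Y, 7 of 8 measured genes stood lower. Uty, a histone demethylase paralogue, stood at 24.6 CPM in the parental, 14.2 CPM in the empty-vector, and 21.4 and 2.46 CPM in the fusion libraries. Xist, the RNA that silences an X chromosome in female cells, had low levels of 0.501 CPM and 2.32 CPM. The windows with the highest medians were 170 to 180 Mb of chromosome 2 (0.41, 77 genes) and 60 to 70 Mb of chromosome 13 (0.38, 105 genes), and genes named Zfp or Gm made up 47 and 71 of their members. Of the 4 most abundant genes of the first, Gnas, Aurka and Rae1 had log2 ratios of -0.18, -0.11 and -0.14, and Rbm38 was at 0.41, the median of its window. Those of the second, Nsun2, Ctsl, Ptch1 and Gm9625, had log2 ratios of -0.54 to 0.02. In the next window, 10 to 20 Mb of chromosome 2 (0.27, 35 genes), Etl4 and Atp5c1 were at 0.09 and -0.18 and Rbm17 and Vim at 0.53 and 0.57. Among all 373 measured genes named Zfp and a number, a list chosen after values were seen, 271 stood higher, with a median log2 ratio of 0.26. At 2-fold, 24 (6.43%) stood higher, which is near the 5.24% of all genes and no result about these genes. Many have close paralogues, so single values among them are uncertain.

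Targets of p53 stood higher with the empty vector. p53 is a transcription factor stabilised by DNA damage and other stress, and its targets arrest the cell cycle, promote cell death and, through Mdm2, limit p53 itself. Of 24 measured targets, 22 had a log2 ratio above 0, 10 (41.7%) stood at least 2-fold higher and 0 at least 2-fold lower, against 5.24% and 3.53% of all genes. The list's median log2 ratio was 0.65, that of all genes 0.04. Mdm2, the ubiquitin ligase that degrades p53, stood at 111 CPM in the parental and 300 CPM in the empty-vector library (ratio 2.7, 2.57 to 2.83). Cdkn1a, which encodes the cyclin-dependent kinase inhibitor p21, stood at 40.5 and 96.0 CPM (ratio 2.37, 2.18 to 2.58). Both arrest and feedback genes were thus among those apart. Trp53inp1, a p53-induced nuclear protein, stood at 179 and 608 CPM (ratio 3.40, 3.28 to 3.53). Plk2, a polo-like kinase, stood at 36.3 and 151 CPM (ratio 4.17, 3.84 to 4.53). Ccng1, cyclin G1, stood at 205 and 496 CPM. Btg2, an antiproliferative gene, stood at 30.8 and 99.0 CPM. The largest ratio of the list was that of Ddit4l, an inhibitor of mTOR signalling, with 6.81 and 30.1 CPM (ratio 4.42, 3.66 to 5.37). Perp, Phlda3 and Fas were the other 3 at 2-fold, with log2 ratios of 1.16, 1.05 and 1.33, though Fas stood at only 0.401 and 1.16 CPM.

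Trp53 itself stood at 434 CPM in the parental and 457 CPM in the empty-vector library, a log2 ratio of 0.08. Bax and Bbc3 (Puma), which promote cell death, stood at 211 and 257 CPM and at 38.3 and 60.6 CPM. Gdf15, on chromosome 8, and Sesn1 were the pair of targets below 0, at -0.66 and -0.02. For 16 of the 24 targets the empty-vector library held the highest level of all 4 libraries. The medians of the fusion libraries over parental were 0.47 and 0.26, with the parental library again shared. In a separate list of 26 apoptosis genes the median was -0.01. There Apaf1, the caspase-activating scaffold, stood at 44.3 and 113 CPM, while Hrk and Casp8 stood at least 2-fold lower at low levels of 1.26 and 1.47 CPM with the empty vector. Bulk RNA does not tell whether all cells shifted or a few cells strongly, nor fewer cells of a type from less RNA per cell.

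**Figure D4:**
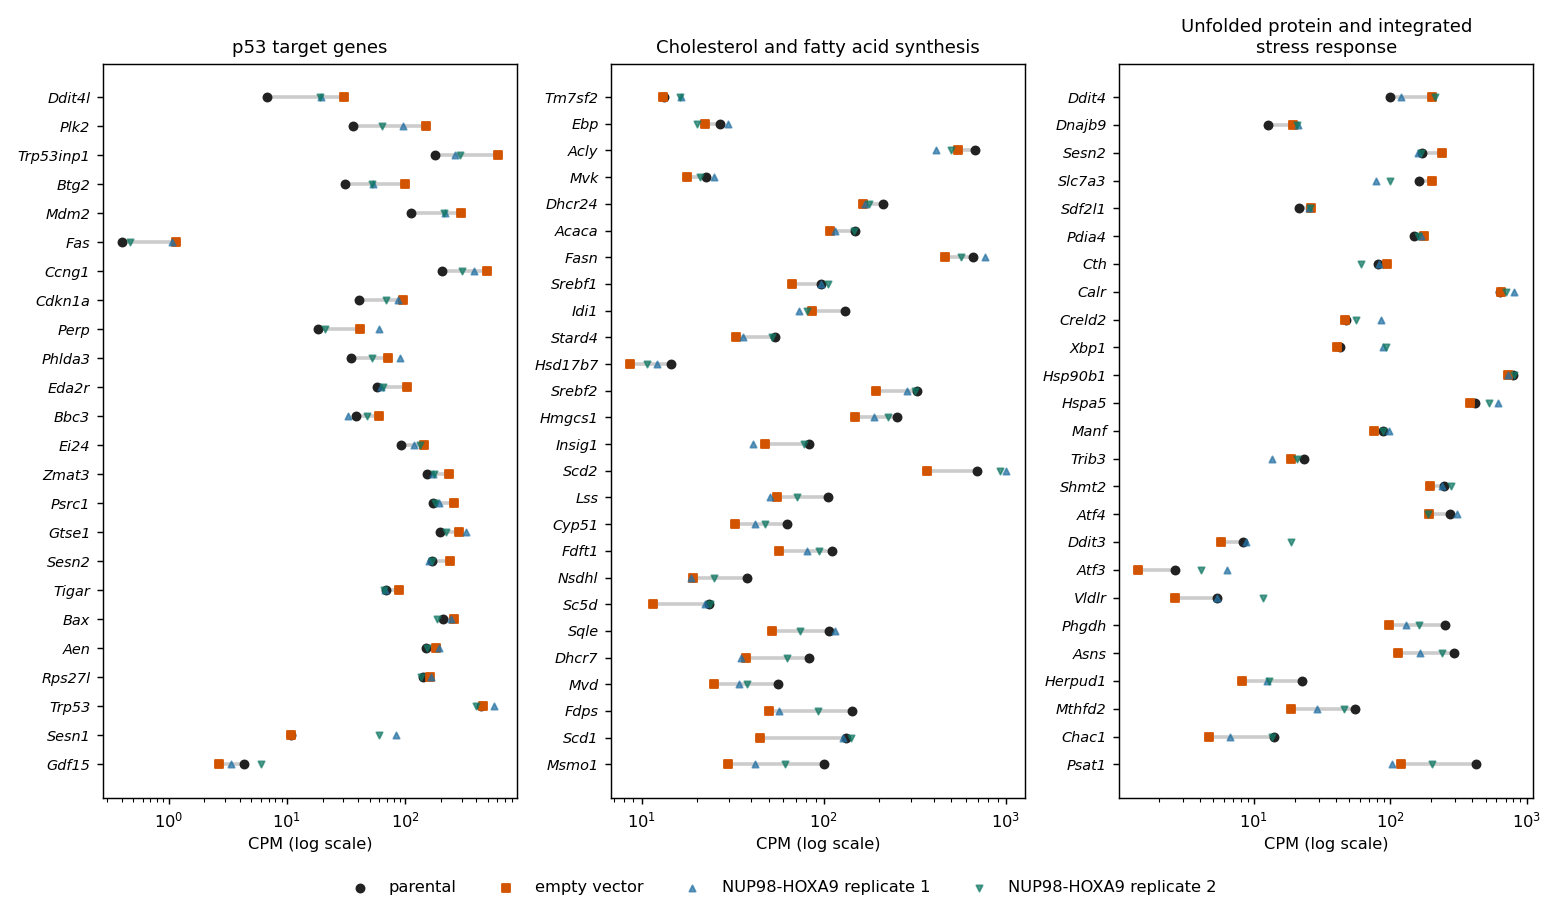
CPM (log axis) of measured members of 3 gene lists in the parental (black circles), empty-vector (orange squares) and fusion libraries (triangles), with genes ordered by log2 ratio, empty vector over parental. Orange squares lie right of the black circles for 22 of 24 p53 targets and left of them for all 26 cholesterol and fatty acid genes plotted.

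Genes of cholesterol and fatty acid synthesis stood lower with the empty vector without exception in the list. Their transcription is driven by SREBP proteins, which are released from the endoplasmic reticulum when membrane sterol is low. All 29 of 29 measured members had a lower CPM, 10 (34.5%) were at least 2-fold lower and 0 at least 2-fold higher (all genes, 3.53% and 5.24%), and 21 were at least 1.5-fold lower. At 1.5-fold, 9.51% of all genes stood lower. The median log2 ratio was -0.91, and -0.80 for the 27 members off chromosome 8. In the mevalonate arm, Fdps, farnesyl diphosphate synthase, stood at 142 CPM in the parental and 50.1 CPM in the empty-vector library (ratio 0.353, 0.327 to 0.380). Sqle, squalene epoxidase, stood at 106 and 51.8 CPM. Msmo1, given above, had the lowest ratio of the synthesis enzymes. Scd1, the stearoyl-CoA desaturase, stood at 133 and 44.6 CPM (ratio 0.337, 0.311 to 0.364). Fasn, fatty acid synthase, stood at 662 and 462 CPM, and Acaca, acetyl-CoA carboxylase, at 148 and 108 CPM. The regulators Srebf2 and Srebf1 had log2 ratios of -0.76 and -0.54, and Tm7sf2, at -0.02, was the member nearest to 0. For 22 of the 29 genes the empty-vector library was the lowest of all 4. The fusion medians over the shared parental library were -0.47 and -0.40. Of the 19 members with a RefSeq promoter, 1 (Hmgcs1) held the letters TCACNCCAC, a sterol regulatory element, on either strand of the 250 bases before the gene start, against 1.23% of all promoters.

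Genes of the unfolded protein and integrated stress responses lay on both sides of 1. In the integrated stress response, ATF4 switches on genes of amino acid supply through C/EBP-ATF response elements. In the ATF6 branch, chaperone genes of the endoplasmic reticulum are switched on through ER stress response elements. Of 25 measured members, 7 (28.0%) stood at least 2-fold lower and 1 (4%) at least 2-fold higher, against 3.53% and 5.24% of all genes. The median log2 ratio was -0.22, or -0.1264 at 10 CPM or more in either library. To show the 2 motifs, the 250 bases before the gene start are given for 3 genes with a C/EBP-ATF element and 3 with an ER stress element (RefSeq, GRCm38.p6). The letters searched were TGATGNAA and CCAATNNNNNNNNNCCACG on both strands, and capitals mark the matches. Other forms of these elements were not searched, so a gene shown for 1 motif may also hold the other element. The motifs and the 6 genes were chosen after values were seen, so no difference between the 2 sets of genes is read from them. The regions are chr6:7693210-7693459 (minus strand) for Asns, chr2:119350992-119351241 (plus) for Chac1, chr8:94386179-94386428 (plus) for Herpud1, chr2:34771840-34772089 (plus) for Hspa5, chr10:86705445-86705694 (minus) for Hsp90b1 and chr15:88819396-88819645 (plus) for Creld2.
Asns: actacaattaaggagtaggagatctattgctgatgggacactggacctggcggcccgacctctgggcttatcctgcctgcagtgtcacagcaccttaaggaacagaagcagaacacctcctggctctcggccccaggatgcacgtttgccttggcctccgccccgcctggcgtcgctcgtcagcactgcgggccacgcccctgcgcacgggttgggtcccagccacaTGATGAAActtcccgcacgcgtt
Chac1: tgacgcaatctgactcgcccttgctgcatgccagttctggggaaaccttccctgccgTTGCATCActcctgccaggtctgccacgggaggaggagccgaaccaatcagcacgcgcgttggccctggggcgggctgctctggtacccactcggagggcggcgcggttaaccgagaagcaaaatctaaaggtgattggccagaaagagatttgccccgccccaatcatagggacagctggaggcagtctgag
Herpud1: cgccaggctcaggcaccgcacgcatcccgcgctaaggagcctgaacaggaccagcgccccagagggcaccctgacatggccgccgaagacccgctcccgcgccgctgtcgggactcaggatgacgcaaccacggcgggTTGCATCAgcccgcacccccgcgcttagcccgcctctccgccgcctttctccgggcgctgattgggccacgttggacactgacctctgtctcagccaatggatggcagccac
Hspa5: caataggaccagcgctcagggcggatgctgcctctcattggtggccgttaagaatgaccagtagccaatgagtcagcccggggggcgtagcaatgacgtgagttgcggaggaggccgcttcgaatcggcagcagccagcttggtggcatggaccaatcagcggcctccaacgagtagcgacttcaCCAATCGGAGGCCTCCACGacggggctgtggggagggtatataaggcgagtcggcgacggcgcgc
Hsp90b1: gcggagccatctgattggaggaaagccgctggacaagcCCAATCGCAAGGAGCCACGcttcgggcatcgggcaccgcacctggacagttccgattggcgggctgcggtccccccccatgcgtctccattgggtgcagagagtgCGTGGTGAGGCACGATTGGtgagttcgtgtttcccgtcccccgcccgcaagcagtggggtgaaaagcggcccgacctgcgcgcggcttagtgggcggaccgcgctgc
Creld2: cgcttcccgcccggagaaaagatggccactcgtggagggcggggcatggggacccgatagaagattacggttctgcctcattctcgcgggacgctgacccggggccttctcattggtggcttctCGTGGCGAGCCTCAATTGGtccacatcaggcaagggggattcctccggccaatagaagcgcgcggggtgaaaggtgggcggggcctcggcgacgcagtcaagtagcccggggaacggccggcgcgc

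Of the genes with C/EBP-ATF letters, Asns, asparagine synthetase, stood at 292 CPM in the parental and 113 CPM in the empty-vector library (ratio 0.388, 0.369 to 0.408). Chac1, a glutathione-degrading enzyme, stood at 14.1 and 4.68 CPM (ratio 0.332, 0.259 to 0.423). Herpud1, a component of protein degradation at the endoplasmic reticulum that lies on chromosome 8, stood at 22.5 and 8.15 CPM. The other 2 measured members with these letters were Vldlr and Atf3, at log2 ratios of -1.0 and -0.86. Of those with ER stress letters, Hspa5, the chaperone BiP, stood at 417 and 381 CPM (ratio 0.915, 0.886 to 0.944). Hsp90b1 stood at 793 and 728 CPM, Creld2 at 47.4 and 46.4 CPM, and Calr, calreticulin, at 636 and 649 CPM although it lies on chromosome 8.

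Of the 22 list members with a RefSeq promoter, 5 (22.7%) held TGATGNAA, against 3.91% of 27025 genes, and 4 (18.2%) held the ER stress letters, against 0.13%. Over all 10471 measured genes with a promoter, the 238 with TGATGNAA had a median of -0.01 and those without it 0.05. The gene with the lowest ratio of the list, Psat1, phosphoserine aminotransferase, did not hold them in this window and stood at 427 and 121 CPM (ratio 0.283, 0.270 to 0.296). Phgdh, which opens serine synthesis, stood at 250 and 98.6 CPM, and Mthfd2, a mitochondrial folate enzyme, at 55.5 and 18.7 CPM. Atf4 itself stood at 275 and 194 CPM (ratio 0.704, 0.675 to 0.734), and its mRNA level does not report its translation. Ddit3 (CHOP) stood at 8.27 and 5.73 CPM and Trib3 at 23.2 and 18.7 CPM. Cth, a cysteine synthesis enzyme and a known ATF4 target, stood at 80.7 and 94.6 CPM, a log2 ratio of 0.23. The member at least 2-fold higher was Ddit4, an mTOR inhibitor that is also responsive to p53, at 99.1 and 202 CPM.

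A wider list of amino acid supply and tRNA charging, added after these values were seen and sharing members with the one above, held 35 measured genes. Of these, 32 stood lower, 11 of them at least 2-fold, and 0 stood at least 2-fold higher, against 3.53% and 5.24% of all genes; the median log2 ratio was -0.64, or -0.51 for the 31 off chromosome 8. Proline synthesis was among them: Aldh18a1 stood at 101 and 41.6 CPM and Pycr1 at 37.8 and 15.6 CPM. Of the amino acid transporters, Slc1a4 stood at 43.2 and 18.8 CPM, Slc6a9 at 11 and 3.89 CPM, and Slc7a5, on chromosome 8, at 294 and 153 CPM. Among the tRNA synthetases, Nars had the lowest ratio, at 401 and 198 CPM, and Wars the highest, at 107 and 92.5 CPM; Sars stood at 348 and 194 CPM. Mthfd1, a folate enzyme, had the highest log2 ratio of the list, at 0.55. Fusion medians over parental were -0.69 and -0.32.

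Ribosomal protein genes stood slightly lower together. All 51 of the listed genes had a lower CPM with the empty vector, 0 of them 2-fold, with a median log2 ratio of -0.31. Over all genes, 6743 of 14669 had a lower CPM. The parental library held the highest level of all 4 libraries for 50 of the 51 genes. The empty-vector library was the lowest for 15 of them. The fusion medians over the shared parental library were -0.35 and -0.22. Rpl3 stood at 2068 CPM in the parental and 1384 CPM in the empty-vector library, while Rps9 stood at 1279 and 1239 CPM. Rpl13, on chromosome 8, had the lowest ratio. By symbol, 78 of 80 ribosomal protein genes stood lower, and they made up 8.34% of counts in the parental library, 6.76% with the empty vector, and 6.62% and 7.23% in the fusion libraries. Eef1a1, the elongation factor that delivers tRNA to the ribosome and the gene with most counts in the parental library, stood at 15583 and 8185 CPM; the fusion replicates had 9306 and 14392 CPM. Its processed pseudogenes are numerous, so reads may be shared out differently between libraries. A list of translation factors and related mRNAs, added after values were seen and including Eef1a1, had a median of -0.22 over 18 genes. Eef2 stood at 4953 and 4017 CPM, and Pabpc1, the poly(A)-binding protein, at 2201 and 2429 CPM.

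Cytoskeletal and keratin genes were a further group that stood lower. Of 23 measured YAP-TEAD target and cytoskeleton genes, 8 (34.8%) were at least 2-fold lower and 0 at least 2-fold higher, against 3.53% and 5.24% of all genes; none lies on chromosome 8. The median log2 ratio was -0.65, but -0.3625 with the deposited TPM and -0.3573 at 10 CPM or more in either library. Tagln, a smooth muscle actin-binding protein, stood at 47.8 CPM in the parental and 13.0 CPM in the empty-vector library (ratio 0.272, 0.235 to 0.313). Myl9, a myosin light chain, stood at 5.26 and 0.999 CPM. Tpm1, tropomyosin, stood at 230 and 109 CPM, and Actg1, cytoplasmic actin, at 2076 and 1155 CPM. Krt18, the partner of Krt8, stood at 45.4 and 12.2 CPM, against 65.0 and 35.0 CPM in the fusion libraries. The classical YAP targets differed from each other: Ccn1 stood at 44.7 and 17.5 CPM, Ccn2 at 46.6 and 53.4 CPM, and Yap1 itself at 156 and 164 CPM. Among adhesion genes, Thbs1, thrombospondin, stood at 56.7 and 19.6 CPM and Tnc, tenascin, at 5.21 and 1.37 CPM. Itgb4, an epithelial integrin, stood higher, at 8.47 and 31.6 CPM. Itgb1, on chromosome 8, stood at 238 and 133 CPM. Markers of fibroblasts, which serve as feeder cells in many ES cultures, had a median of -0.46 over 11 measured of 20; 1 (Tagln) was 2-fold apart, and the summed level of the list was 240 CPM in the parental and 226 CPM in the empty-vector library. Col1a1, a defining fibroblast collagen, stood at 17.2 and 10.7 CPM. What part such cells have in these values was not tested.

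Signalling genes differed member by member. In the Nodal pathway, which patterns the epiblast through activin-type receptors, 3 of 17 measured genes stood at least 2-fold higher and 3 at least 2-fold lower, against 5.24% and 3.53% of all genes. The ligand Nodal stood at 54.1 CPM in the parental and 198 CPM in the empty-vector library (ratio 3.66, 3.42 to 3.92); the fusion libraries held 154 and 117 CPM. Its co-receptor Tdgf1 (Cripto) stood at 290 and 725 CPM (ratio 2.5, 2.43 to 2.58). The feedback inhibitor Lefty2, itself a Nodal target, went the other way, at 269 and 88.6 CPM (ratio 0.329, 0.312 to 0.348), and Lefty1 stood at 152 and 117 CPM. For Nodal, Tdgf1 and Lefty2 both fusion libraries lay on the empty-vector side of the parental library. Inhbb, an activin subunit, stood at 1.95 and 11.4 CPM.

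In the Notch pathway, a list added after values were seen, 5 of 15 measured genes stood at least 2-fold higher and 0 lower. The shares over all genes, for this list and those that follow, were 5.24% higher and 3.53% lower. Besides the ligand Dll1, the ligand Jag1 stood at 23.8 and 48.2 CPM. The receptor Notch3 stood at 96.9 and 224 CPM (ratio 2.32, 2.19 to 2.44), and Notch4 at 15.3 and 34.6 CPM. Hes6, a helix-loop-helix factor, stood at 14.7 and 44.6 CPM. Hes1, the classical Notch target, stood at 21.5 and 22 CPM. For Wnt, 4 of 16 measured genes stood at least 2-fold higher and 1, Nkd1, lower. Lef1, a nuclear mediator of Wnt signalling, stood at 5.91 and 35.3 CPM (ratio 5.98, 4.91 to 7.33); the fusion replicates had 4.04 and 9.88 CPM. Axin2, the usual reporter of the pathway, stood at 16.8 and 16.0 CPM. Ccnd1, cyclin D1, stood at 118 and 249 CPM, and Notum, a Wnt-inactivating enzyme, at 24.2 and 51.8 CPM. Of 21 FGF-ERK response genes, 1 stood 2-fold higher (Fosl1, at 0.701 and 2.37 CPM) and 1 lower (Dusp4). At 4.76% each way, this is near the shares over all genes and no result about the list. Fgf4, the ligand that ES cells make, stood at 124 and 229 CPM, while its feedback gene Dusp6 stood at 78.6 and 58.0 CPM. In the LIF-STAT3 list 2 of 16 stood higher, Klf4 and Gbx2, and Socs3, the feedback inhibitor, stood at 35.6 and 59.1 CPM. The BMP list had a median of 0.11, and 0.07088 to 0.184 over the alternatives. The retinoic acid list had a median of -0.24, which turned to 0.003587 at 10 CPM or more in either library. Rarg, a retinoic acid receptor, stood at 121 and 238 CPM, and Cyp26a1, which degrades retinoic acid, had 40 and 8 counts.

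Of 13 measured core genes of the pluripotency network, 0 were 2-fold apart, which is near the 8.77% of all genes and is no result about these genes. Their median log2 ratio was 0.18, with 11 of 13 above 0. Sox2 stood at 399 CPM in the parental and 433 CPM in the empty-vector library. Nanog stood at 302 and 485 CPM (ratio 1.60, 1.55 to 1.66), and Dppa2, a chromatin-binding factor, at 82.9 and 127 CPM. Of 18 naive pluripotency genes, which mark the preimplantation-like state, 2 stood at least 2-fold higher and 0 lower. They were Klf4, at 60.1 and 124 CPM, and Sox15, at 11.2 and 25.1 CPM. Tcl1 stood at 110 and 59.2 CPM, and Esrrb at 601 and 615 CPM. Among 19 formative and primed genes, 3 stood higher (Lef1, Nodal and Tdgf1) and 3 lower (Lefty2, Fgf5 and Fgf8). Fgf5, a marker of the primed epiblast, stood at 11.5 and 4.68 CPM, while Otx2 stood at 58.9 and 77.3 CPM. Of 23 genes listed for the 2-cell-like state, a rare state of ES cultures, 9 were measured. Of these, 8 stood at least 2-fold higher, and the list's median was 1.41, or 0.907 with a pseudocount of 1 CPM. Apart from Zfp750 the higher genes were low and near-identical copies, among which reads are shared out. Zscan4f stood at 1.98 and 8.28 CPM, against 36.4 and 192 CPM in the fusion libraries. Zscan4b, Zscan4d, Zscan4e and Usp17le were under 1 CPM in the parental library. They entered only through the empty-vector library and could not have been counted as lower.

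Markers of differentiated lineages were mostly low. Over all genes, 5.24% stood at least 2-fold higher and 3.53% lower. In the trophectoderm list 6 of 14 measured genes stood at least 2-fold lower, among them Krt8 and Krt18, which the cytoskeleton list also holds, and Hand1. H19, Esx1 and Ly6a were also among them, at only 1.95, 1.45 and 1.80 CPM in the parental library. The list's median log2 ratio was -0.86, or -0.53 with 1 CPM required in both libraries. Hand1, a basic helix-loop-helix factor, had 93 counts in the parental and 7 in the empty-vector library. Tfap2c, a trophoblast regulator that ES cells also express, stood at 58.7 and 67.1 CPM. Of 12 primitive streak and mesoderm genes 5 stood lower and 1 higher. Among the lower ones, Lhx1, Hand1, Mixl1 and Isl1 were under 1 CPM with the empty vector. They entered only through the parental library, and Kdr, the higher gene, only through the empty-vector library. The list's median was -0.90, or -0.48 over the 5 genes at 1 CPM in both libraries. Eomes and T (brachyury) were less than 2-fold apart, at 12.5 and 6.57 CPM and at 6.91 and 4.94 CPM. In the list of blood and endothelium, 5 of 10 stood higher and 2 lower. Its median log2 ratio was 0.75, and 0.224 to 1.355 over the alternatives. Eng, a TGF-beta co-receptor, stood at 32.0 and 103 CPM, and 104 and 72.0 CPM in the fusion libraries. Tek, the angiopoietin receptor, stood at 16.9 and 45.6 CPM, against 5.30 and 6.62 CPM in the fusion libraries, and 10 of the list's 20 genes were under 1 CPM in both controls. None of 13 endoderm genes was 2-fold apart, with a median of 0.00. In neural ectoderm 2 of 12 stood higher (Dll1 and Gbx2) and 2 lower (Nes and Nefm). Nes, nestin, stood at 50.8 and 21.8 CPM, and Pax6 at 8.17 and 5.10 CPM. Of 39 Hox genes, 4 were measured in the controls, the highest at 3.36 CPM (Hoxc13, empty vector).

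Interferon and antigen presentation genes stood lower in part. Of 20 measured interferon response genes, 5 (25%) stood at least 2-fold lower and 1 (5%) higher, against 3.53% and 5.24% of all genes. Their median was -0.25, or -0.132 with 1 CPM required in both libraries. The fusion medians over the shared parental library were -1.05 and -0.43. For 11 of the 20 genes the parental library held the highest level of all 4 libraries. The empty-vector library was the lowest for 4 of them. Psmb8, an immunoproteasome subunit, stood at 5.66 CPM in the parental and 0.894 CPM in the empty-vector library. Bst2 (tetherin), on chromosome 8, stood at 53.9 and 23.4 CPM. H2-K1, a class I heavy chain, stood at 53.3 and 21 CPM (ratio 0.394, 0.350 to 0.442). Tap1, the peptide transporter, was the gene that stood higher, at 5.76 and 16.5 CPM. In a list of class I presentation added after values were seen, 6 of 14 stood lower and 2 higher, and B2m, the light chain, stood at 26.9 and 17.7 CPM. The list of nucleic acid sensors and silencers of introduced DNA had 0 of 19 genes 2-fold apart and a median of 0.24. Trim28, the corepressor that silences retroviral DNA in ES cells, stood at 1739 and 2131 CPM, and the sensor Ddx58 (RIG-I) at 54.9 and 56.0 CPM.

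Several lists shifted by less than 2-fold but with most members on one side. Of 27 S phase genes 26 had log2 ratios above 0, with a median of 0.27 and 0 genes at 2-fold. Rrm2, a subunit of ribonucleotide reductase, stood at 242 CPM in the parental and 368 CPM in the empty-vector library. Genes of G2 and mitosis had a median of 0.05. Among regulators of the cell cycle, Rb1, the retinoblastoma gene, stood at 19.3 and 60.1 CPM (ratio 3.12, 2.77 to 3.51), and Cdkn2a at 6.31 and 2.94 CPM. In glycolysis and the hypoxia response, 26 of 31 genes were above 0, with a median of 0.28. The fusion medians over the shared parental library were 0.50 and 0.68. For 21 of the 31 genes the parental library was the lowest of all 4 libraries, and for 3 the empty-vector library was the highest. Slc2a1, the glucose transporter, stood at 419 and 815 CPM, and 1200 and 1338 CPM in the fusion libraries. Bnip3, a mitophagy receptor, was the member at 2-fold, at 90.9 and 200.1 CPM, and Ldha, lactate dehydrogenase, stood at 1422 and 2188 CPM. Vegfa, also a hypoxia target, stood at 33.3 and 21.2 CPM. The nuclear genes of oxidative phosphorylation had a median of -0.02 with 0 of 41 at 2-fold. Of 15 genes of DNA methylation, 11 were above 0, with a median of 0.47. Tet1, which oxidises methylcytosine, stood at 356 and 675 CPM, Tet2 at 71.4 and 143 CPM, and Dnmt1, the maintenance methyltransferase, at 428 and 594 CPM. These ratios were smaller than most named above, and how far 2 cultures of EB3 vary in them was not measured.

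The remaining lists held few genes 2-fold apart, and such counts near the share over all genes, here and above, are no result about these lists. Heat shock genes had a median of 0.00 and 0 of 16 at 2-fold. Among 39 imprinted genes H19 was 2-fold lower, at 1.95 and 0.631 CPM, and 0 were 2-fold higher. None of 35 Polycomb and COMPASS genes and none of 32 nucleoporin and exportin genes was 2-fold apart; Nup98 stood at 208 and 216 CPM. In the antioxidant and drug response list, Abcb1b, a multidrug efflux pump, stood at 28.2 and 125 CPM (ratio 4.41, 4.02 to 4.84), while its paralogue Abcb1a stood at 24.6 and 29.8 CPM. Of the oncofetal RNA-binding and HMGA genes, Hmga2, a chromatin architectural protein, stood at 42.7 and 13.2 CPM, and Lin28a at 358 and 278 CPM. Of 19 germline genes, Hormad1, a meiotic chromosome protein, stood higher, at 2.69 and 10.6 CPM.

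**Figure D5:**
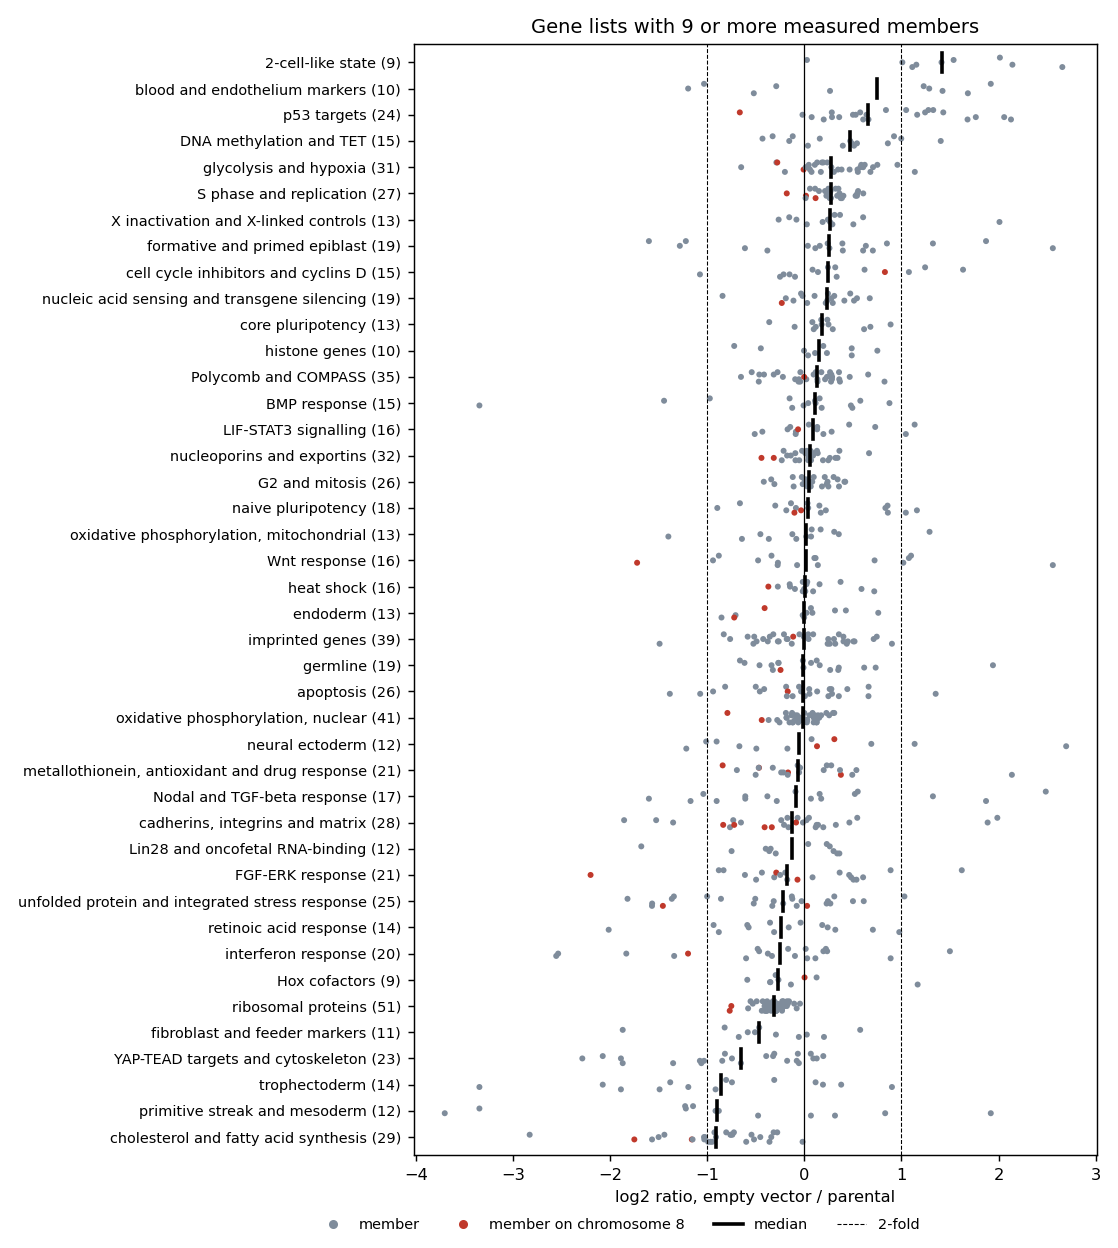
Log2 ratio, empty vector over parental, of each measured member of the lists with 9 or more measured genes (number in parentheses); black bars are list medians, red points lie on chromosome 8 and dashed lines mark a 2-fold ratio. The 5 lists added after values were seen are not drawn. Medians run from 1.41 for the 2-cell-like state, 0.75 for blood and endothelium markers and 0.65 for p53 targets to -0.91 for cholesterol and fatty acid synthesis.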

How the data were processed

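RNA-seq libraries were made with a stranded mRNA kit, per the labels' protocols. Per the submitters' processing notes, the genome was GRCm38 (mm10) and the tools included RSEM 1.3.3, STAR 2.7.10a and DESeq2 1.36.0. The sources used here give neither the annotation release nor the strand setting. The authors deposited expected counts and TPM per gene and library, per the file headers. The expected counts are estimates in which multiply mapping reads are shared out, and 9.17% (parental) and 9.16% (empty vector) of values are not whole. They were scaled to CPM by library totals and kept at 1 CPM or more in either control. Log2 ratios used 0.1 CPM added to each value. Identifiers (55141 of 55401) were matched to GENCODE M21 for symbols and positions; where 2 identifiers share a symbol, lists used the more abundant. Promoters were matched by symbol to RefSeq, GRCm38.p6. Alternatives were TMM factors (edgeR 4.0.16), DESeq2 1.42.0 size factors, other totals, the deposited TPM, and other pseudocounts, filters, folds and windows. The calculation was tested on simulated data. Tables were handled in python 3.11.15 with pandas 2.3.3.

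The 44 gene lists, and the comparison itself, were chosen with earlier results of these data known, and 5 lists were added after the values were seen, as marked. Genes were named by rule: Nup98, Hoxa9, Pou5f1 and Hprt; the 15 largest and 15 smallest log2 ratios off chromosome 8 and 8 of each on it, among official symbols at 5 CPM or more; and up to 4 members a list with the largest absolute log2 ratio. Members named beyond it were chosen for their role after their values were seen. The windows furthest from 0 off chromosome 8 are described by their 4 most abundant genes. A few genes that the rule or the lists name are not reported here by name.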

Additional observations from a re-analysis of the deposited data

How the results depend on the processing

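No paired analysis was possible because each control group has 1 library, and for the same reason no library could be left out. The median log2 ratio of all genes (0.04) lay at -0.0004213 with TMM scaling, 0.0006275 with DESeq2 size factors, 0.02079 with totals that leave out chromosome 8 and mitochondrial genes, and 0.1122 with the deposited TPM. That of chromosome 8 (-0.36) was -0.4032 with TMM scaling, -0.4021 with DESeq2 size factors, -0.2865 with TPM and -0.3053 without a CPM filter, so its direction held in each. That of chromosome 19 turned to -0.00269 with TMM scaling and -0.001691 with DESeq2 size factors. The medians of chromosomes 1, 3, 6, 11, 15 and 18, all near 0, also lay on both sides of it over the alternatives. The ribosomal protein median was -0.2417 with TPM. The counts of genes at least 2-fold higher and lower (769 and 518) were 417 and 247 with a pseudocount of 1 CPM, 2203 and 1568 without a filter, 463 and 309 with 1 CPM in both libraries, 260 and 146 at 10 CPM, and 1895 and 1395 at 1.5-fold. Fewer or more low genes enter under those filters; for the other values the cause was not tested. The medians of p53 targets (0.611 to 0.7441) and of cholesterol and fatty acid genes (-0.9495 to -0.8272) kept their direction in all alternatives run. Of 1918 recomputed values of named genes, 1829 moved by less than their counting interval allows and 89 moved further; no called value among them changed sign. The medians of the YAP-TEAD and cytoskeleton (-0.6996 to -0.3573), interferon (-0.3528 to -0.132), stress response (-0.2666 to -0.1264), BMP (0.07088 to 0.184) and 2-cell-like lists (0.907 to 1.537) moved by over 1.5 times in at least 1 alternative with their direction kept. So did, among others, those of the trophectoderm (-0.8979 to -0.5279), primitive streak and mesoderm (-0.9344 to -0.4764), blood and endothelium (0.224 to 1.355) and formative lists (0.2191 to 0.4374). That of the retinoic acid list (-0.275 to 0.003587) turned. Some list medians near 0 also crossed it, among them neural ectoderm (-0.1745 to 0.2014), apoptosis (-0.05358 to 0.09341), Nodal (-0.1302 to 0.1575) and Wnt (-0.02488 to 0.1273). Depth limits genes of low CPM, such as Fas.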
